A study of Mus musculus with 2 samples.

Results

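The 10 histone variant genes described here were followed through the germ cells of the adult mouse testis: the testis linker histone genes Hist1h1t, Hils1 and H1fnt, the linker histone gene H1fx, the testis H2B and H2A genes Hist1h2ba and Hist1h2aa, the H3.3 genes H3f3a and H3f3b, and the H2A.Z genes H2afz and H2afv. They were chosen by name, as the rows of the deposited matrix with these symbols, and are 10 of the 50686 genes in it, repeat rows not counted. Single cells were taken from whole testis of 2 wild-type mice of the strain C57Bl/6J Crl at 8 weeks of age, with 1 droplet library for each mouse. The animals are described as littermates. There was a single condition with no treatment, mutation, sort or transgene, and the level of each gene was compared between germ cell stages.

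Histones package DNA into nucleosomes, and linker histones of the H1 family bind the DNA between them. Male germ cells exchange many of the usual histones for variants, some of them made only in the testis, before transition proteins and then protamines take over the DNA of the condensing spermatid. The H3.3 and H2A.Z variants are made in most cells and are put into chromatin outside DNA replication by dedicated chaperones and remodelling complexes.

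The places of these genes are given on GRCm38 from the GENCODE annotation. Hist1h2ba and Hist1h2aa lie head to head on chromosome 13, Hist1h2ba at chr13:23933773-23934156 on the minus strand and Hist1h2aa at chr13:23934462-23934851 on the plus strand, with 305 bases between them. Hist1h1t, at chr13:23695814-23696725, is on the same chromosome. Hils1 (chr11:94967593-94968456, plus strand) lies within the bounds of Sgca, which is on the opposite strand. H1fnt is at chr15:98255986-98257293 and H1fx at chr6:87980421-87981637, both on the minus strand. Each of these 6 genes is a single exon. The other 4 genes have introns, with H3f3a at chr1:180800832-180813943, H3f3b at chr11:116021912-116027962 and H2afv at chr11:6427229-6444443 on the minus strand, and H2afz at chr3:137864487-137866922 on the plus strand. The annotated models of Hist1h2ba and Hist1h2aa, of 384 and 390 bases, hold the coding sequence and stop codon and no untranslated bases, which matters for a method that reads the 3′ end of the RNA. The part that this plays in their low counts was not tested. The authors counted reads with their own reference annotation, and whether its models hold the 3′ ends of these genes was not checked.

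All 10 genes had an entry among the RefSeq promoter sequences (GRCm38.p6). The 250 bases before the annotated start are shown for 4 testis genes with no annotated exon in that window, since the results below turn on their stage-restricted levels. Hist1h2aa also has no annotated exon in its window, which overlaps that of Hist1h2ba and is not shown. Capitals mark matches, on either strand, to TATAAA (a form of the TATA box), CCAAT (the CCAAT box), ATTTGCAT (the octamer known from H2B promoters), GGGCGG (the GC box), TGACGTCA (the cyclic AMP response element) or GTTGCC (part of the X-box known from RFX factors). The window before Hist1h2ba lies within the 305 bases shared with Hist1h2aa and holds 250 of them.
Hist1h2ba (chr13:23934157-23934406, minus strand): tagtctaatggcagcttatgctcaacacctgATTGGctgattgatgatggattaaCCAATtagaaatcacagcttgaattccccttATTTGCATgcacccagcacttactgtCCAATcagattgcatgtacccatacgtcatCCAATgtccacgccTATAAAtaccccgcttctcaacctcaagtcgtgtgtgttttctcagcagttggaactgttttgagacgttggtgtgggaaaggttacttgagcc
Hist1h1t (chr13:23695561-23695810, plus strand): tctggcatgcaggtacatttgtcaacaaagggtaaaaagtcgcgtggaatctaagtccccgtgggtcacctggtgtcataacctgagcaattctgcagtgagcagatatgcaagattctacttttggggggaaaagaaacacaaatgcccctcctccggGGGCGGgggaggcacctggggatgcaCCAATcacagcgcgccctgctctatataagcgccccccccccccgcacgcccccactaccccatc
Hils1 (chr11:94967343-94967592, plus strand): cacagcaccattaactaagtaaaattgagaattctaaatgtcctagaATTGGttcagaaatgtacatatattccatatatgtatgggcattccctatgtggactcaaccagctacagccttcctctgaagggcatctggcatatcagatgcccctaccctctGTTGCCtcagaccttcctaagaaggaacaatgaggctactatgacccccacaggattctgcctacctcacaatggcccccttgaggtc
H1fnt (chr15:98257308-98257557, minus strand): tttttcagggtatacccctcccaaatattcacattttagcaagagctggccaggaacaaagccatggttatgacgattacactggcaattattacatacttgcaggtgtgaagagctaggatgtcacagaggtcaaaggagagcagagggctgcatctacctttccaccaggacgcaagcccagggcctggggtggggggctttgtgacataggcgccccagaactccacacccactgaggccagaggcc
Among 32851 RefSeq windows of the same length, 12.4% held the TATAAA letters, 33.8% those of the CCAAT box, 1.6% the octamer, 32.7% the GC box, 1.55% the cyclic AMP response element and 10.4% the X-box part. The space between Hist1h2ba and Hist1h2aa held the CCAAT box in both orientations, 1 copy of the octamer, and TATAAA reading toward each gene, of which the one for Hist1h2ba begins 94 bases before its RefSeq start. The one for Hist1h2aa begins 32 bases before its own and runs past the end of the printed window. The window before Hist1h1t held the CCAAT and GC boxes, that before Hils1 the CCAAT box and the X-box part, and that before H1fnt no match to any of the 6. These matches are a description of the letters and say nothing of a bound factor.

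The matrix held 27450497 UMIs (unique molecular identifiers, each standing for 1 captured RNA molecule) over 1237 cells of mouse 1 and 30302332 UMIs over 1315 cells of mouse 2. K-means clusters were built without the 10 genes, any other histone gene and the lists of related genes described further on. They gave 6 germ cell clusters with 2534 cells, which were ordered by their median diffusion pseudotime, an ordering of cells by the likeness of their transcriptomes. In order, these were an early spermatocyte-like cluster (164 cells, 11 of 14 markers), a pachytene or later spermatocyte-like cluster (526 cells, 9 of 14), an unnamed cluster led by Ssxb3, Ssxb1 and Ssxb2 (690 cells, 2 of 12 round spermatid markers), a round spermatid-like cluster (448 cells, 8 of 12), and a smaller and a larger elongating or condensing spermatid-like cluster (192 and 514 cells, 12 of 12 each). They are called clusters 1 to 6 below. The markers of the smaller elongating cluster also scored for round spermatids, at 0.664 against 0.857. Cells numbered at least 53 per mouse in each cluster, and a further 7 spermatogonium-like, 6 Sertoli-like and 5 Leydig-like cells were too few for a test.

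Levels are given as CPM, the count scaled to a fixed total of UMIs, from the UMIs summed over the cells of a cluster in 1 mouse, as mean ± SD of the 2 mice (n = 2). Because the UMIs are counted at the 3′ end, CPM are not scaled for gene length. Consecutive clusters were compared with edgeR's quasi-likelihood test on the 12 sums, as the later minus the earlier cluster, with p-values adjusted over all 14144 genes tested (Benjamini-Hochberg) and called at an adjusted p under 0.05. Repeat rows were not left out of this test, so any that passed the filter on low counts are among these 14144. The clusters come from other genes of the same cells, so these p-values measure the spread between 2 mice and not an independent sorting of the stages. Each cluster also contained protamine and transition protein RNA, at 0.645% and 0.328% of the UMIs of the early spermatocyte-like cells of mouse 1 and mouse 2 and 18.8% and 15.6% in cluster 6, and this RNA was present in the somatic-like cells as well.

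Of the 10 genes, 8 were called lower and 0 higher in cluster 2 than in cluster 1, against 24.5% lower and 25.6% higher of all genes tested. From cluster 2 to cluster 3, 5 were higher and 1 lower (31.7% and 30.8% of all genes). From cluster 3 to cluster 4, 3 were higher and 2 lower (25.7% and 20.1%), and from cluster 4 to cluster 5 again 3 were higher and 2 lower (23.2% and 20.6%). From cluster 5 to cluster 6, 4 were higher and 2 lower (16.2% and 23.5%). The first step is the one at which the members' count stood farthest from the background, although 2 of its 8 calls, those of Hils1 and H1fnt, were at the level found in somatic-like cells, as described with these genes. Without called doublets 6 were lower at this step, with the number of cells as library size 5 were lower and 2 higher, and with each cell thinned to 5000 UMIs, where 7 of the genes were tested, 2 were lower. With the number of cells as library size, 2167 of all 14144 genes tested were called lower at this step and 4915 higher. The shares over all genes were not counted without doublets or when thinned, so those counts have no background here. Scaling decides part of these directions. With UMIs per cell in place of TMM scaling, the median of all genes was 0.40 at the first step and -1.53 at the last on the log2 scale, and the share of calls that were higher was 69.4% and 0.519%, against 51.1% and 40.8% with TMM. With library size alone these shares were 39.1% and 14.4%, and the medians -0.24 and -0.60.

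**Figure D1:**
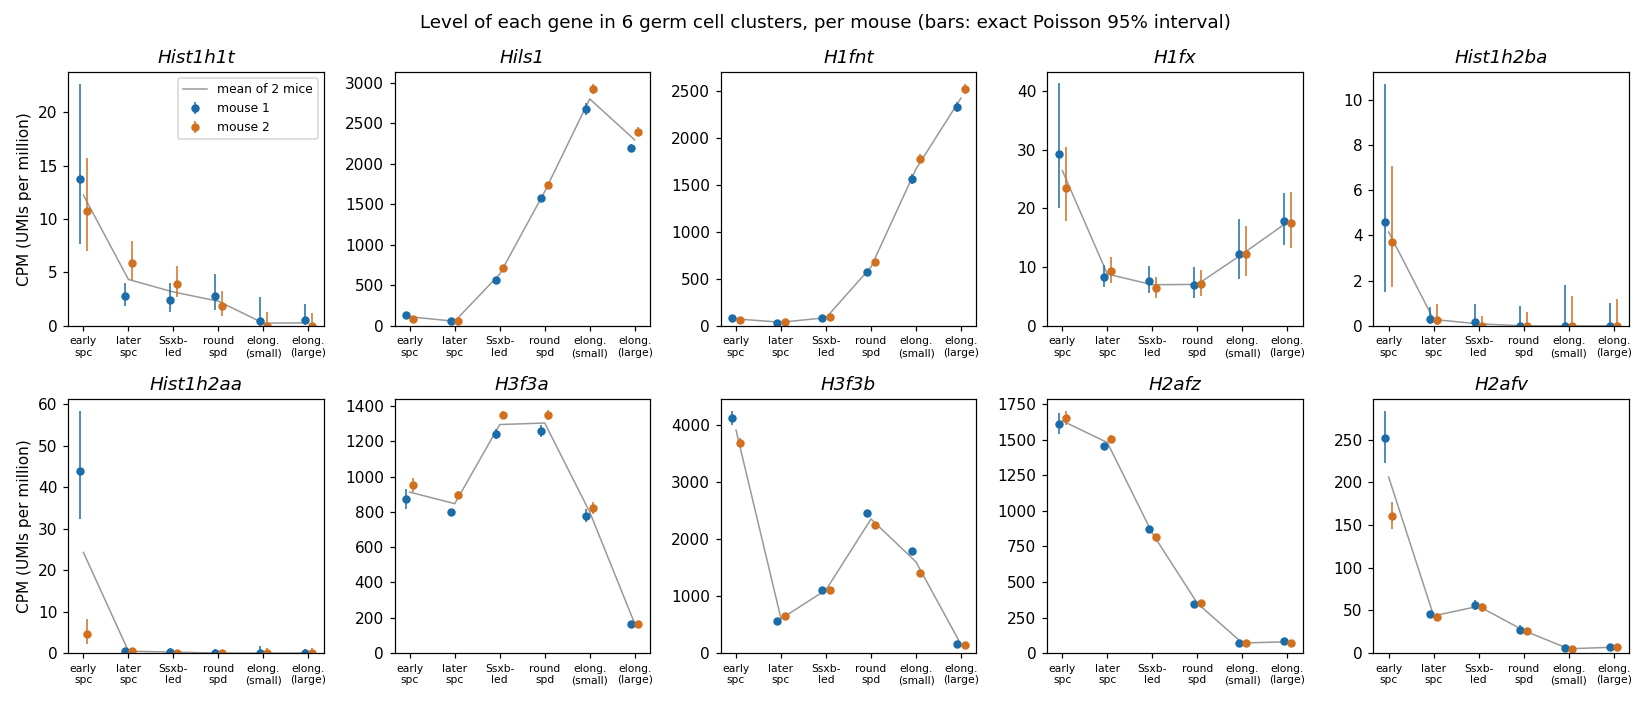
Level of the 10 genes in CPM (vertical axis, linear, each panel with its own range) in 6 germ cell clusters in pseudotime order (horizontal axis; spc, spermatocyte-like; spd, spermatid-like; elong., elongating or condensing), for mouse 1 and mouse 2 with exact Poisson 95% intervals and the mean of both mice as a line. In CPM, Hils1 and H1fnt are highest in the last 2 clusters and both H2A.Z genes in the first, and H3f3b has a high first point, a low second and 2353 CPM in the round spermatid-like cluster.

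Among the linker histone genes, Hist1h1t, which encodes the testis H1 known from pachytene spermatocytes, had 187 UMIs in all. Its level was 13.7 and 10.7 CPM in cluster 1 of mouse 1 and mouse 2, then 2.78 and 5.90 CPM in cluster 2 and 2.37 and 3.96 CPM in cluster 3. Cluster 1 stood above all later clusters in both mice, and clusters 2 to 4 overlapped. Hist1h1t fell by 1.24 on the log2 scale from cluster 1 to cluster 2 (SE 0.413, adjusted p = 0.0157, edgeR's quasi-likelihood test), and with UMIs per cell the fall of -0.82 did not pass (adjusted p = 0.117). Round spermatid-like cells held 23 UMIs of it, and clusters 5 and 6 held 1 and 2. With the UMIs of both mice pooled, the ratio of cluster 4 to cluster 5 was 10.7. Its exact 95% interval, from 1.74 to 443, covers counting error and not the spread between mice. Clusters 4 and 5 held 12 and 1 UMIs in mouse 1 and 11 and 0 in mouse 2. This step missed the threshold in the main fit (adjusted p = 0.0655, edgeR) and passed it with the mouse as a block (adjusted p = 0.028, edgeR). Poly(A) priming is known to miss histone mRNAs that end in a stem-loop, and its part in the low counts of Hist1h1t was not tested. 

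Hils1, a spermatid linker-histone-like protein gene, rose from the Ssxb-led cluster on. It had 562 and 714 CPM in cluster 3 of mouse 1 and mouse 2, 1576 and 1739 CPM in cluster 4, 2678 and 2925 CPM in cluster 5 and 2192 and 2399 CPM in cluster 6. The clusters did not overlap between mice from one step to the next. Hils1 rose by a log2 fold change of 3.57 (SE 0.189, adjusted p = 2.75e-13) at the step into cluster 3, by 1.62 (SE 0.172, adjusted p = 6.67e-08) into cluster 4 and by 1.26 (SE 0.170, adjusted p = 1.82e-06) into cluster 5, all by edgeR's quasi-likelihood test. At the last step its change was 0.31 on the log2 scale, with an adjusted p of 0.153 by edgeR and of 0.0256 with the mouse as a block, and the sign turned to -0.29 with library size alone and -1.22 with UMIs per cell. Hils1 overlaps Sgca, which had 1265 UMIs against 57017 of Hils1.

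H1fnt, which encodes another spermatid linker histone needed for normal condensation of the sperm nucleus, rose later. It had 83.1 and 88.9 CPM in cluster 3 of mouse 1 and mouse 2, 576 and 675 CPM in cluster 4, 1563 and 1779 CPM in cluster 5 and 2332 and 2521 CPM in cluster 6. The step into cluster 4 had a log2 fold change of 3.11 (SE 0.167, adjusted p = 2.91e-12, edgeR), and the step into cluster 5 one of 1.92 (adjusted p = 8.81e-10, edgeR). The last step was higher as well (adjusted p = 2.85e-06, edgeR), but turned to -0.39 with UMIs per cell. Cells of cluster 6 held fewer UMIs (median 11718) than those of cluster 5 (median 24005). In UMIs per cell, H1fnt was highest in cluster 5, at 42.5 against 31.8 in cluster 6 over both mice.

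Both spermatid genes were also found in somatic-like cells, which should lack them. Early spermatocyte-like cells had 2.16 Hils1 UMIs per cell and later spermatocyte-like cells 1.89, against 1.91 in the 11 Sertoli-like and Leydig-like cells, whose median depth was 9991 UMIs against 19576 and 20843. Relative to every 1000 UMIs of transition proteins and protamines, which are found in every cluster, Hils1 had 23.7 and 19.2 UMIs in clusters 1 and 2 and 28.4 in the somatic-like cells, then 129, 216, 41.0 and 13.2 in clusters 3 to 6. H1fnt had 16.1, 12.9 and 17.1 in clusters 1 to 3 and 13.5 in the somatic-like cells, then 81.8 and 24.5 in clusters 4 and 5, and 12.4 and 16.2 in cluster 6 of mouse 1 and mouse 2. Per cell, H1fnt had 1.48, 1.27 and 1.78 UMIs in clusters 1 to 3 and 0.909 in the somatic-like cells, the last from 10 UMIs in 11 cells of lower depth. This ratio does not rank the late clusters, since in cluster 6 it was near or below the somatic-like value while H1fnt and Hils1 had 31.8 and 30.0 UMIs per cell and transition proteins and protamines 2268. No expression is read from the levels of Hils1 in clusters 1 and 2 and of H1fnt in clusters 1 to 3, and the part of free RNA in them was not tested. The falls called at the first step, -0.68 for Hils1 and -0.65 for H1fnt, and the rise of 1.24 for H1fnt into cluster 3 moved with this RNA, of which 3 of 5 genes were called lower at the first step and 5 of 5 higher at the second. Without the 25 called doublets the first-step values were 0.08 and -0.04 (adjusted p = 0.782 and 0.914, edgeR).

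**Figure D2:**
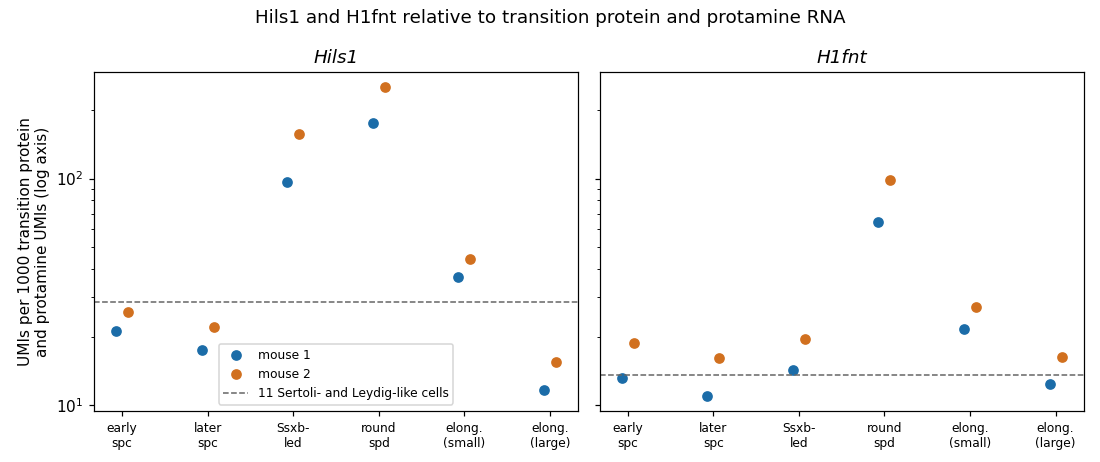
UMIs of Hils1 and H1fnt per 1000 UMIs of transition proteins and protamines (vertical log axis) in the 6 germ cell clusters (horizontal axis), per mouse, with the level of 11 Sertoli-like and Leydig-like cells as a dashed line. Hils1 leaves that line in the Ssxb-led cluster, at 129 over both mice, and H1fnt in the round spermatid-like cluster, at 81.8.

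H1fx, a linker histone gene used in many tissues, had 596 UMIs and a U-shaped course. Its level was 29.3 and 23.5 CPM in cluster 1, 6.99 and 7.10 CPM in cluster 4, and 17.8 and 17.5 CPM in cluster 6 of mouse 1 and mouse 2. It fell by 1.29 on the log2 scale at the first step (adjusted p = 4.12e-05), and rose with log2 fold changes of 1.30 (adjusted p = 0.000232) and 1.13 (adjusted p = 0.000525) at the 2 last steps, by edgeR. With each cell thinned to 5000 UMIs none of the 3 steps passed (adjusted p = 0.0534, 0.332 and 0.0506, edgeR), at -1.06, 0.76 and 1.21. The last rise was 0.53 with library size alone (adjusted p = 0.081, edgeR) and turned to -0.40 with UMIs per cell. The 5 somatic linker histone genes Hist1h1a to Hist1h1e all failed the filter on low counts, so H1fx could not be set beside them.

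Hist1h2ba and Hist1h2aa, the testis H2B and H2A genes that share a divergent start region, were rare and early. Hist1h2ba had 5 and 9 UMIs (4.58 and 3.72 CPM) in cluster 1 of mouse 1 and mouse 2, 3 and 2 UMIs in cluster 2, and 1 UMI in all of clusters 3 to 6. Hist1h2aa had 48 UMIs (44.0 CPM) in cluster 1 of mouse 1 and 11 UMIs (4.54 CPM) in that of mouse 2, and 5 and 3 UMIs in cluster 2. Among the 6 germ cell clusters, both mice were therefore highest in cluster 1. For Hist1h2aa the mice differed from each other, and the mean of 24.3 ± 27.9 CPM has a spread as large as itself. In mouse 1 the 2 cells with the most UMIs held 10 and 8, and without the 2 top cells of each mouse the levels were 29.2 and 2.52 CPM. This look at single cells was chosen once the difference between the mice was known. From cluster 1 to cluster 2, Hist1h2ba fell by 3.45 and Hist1h2aa by 5.10 on the log2 scale (adjusted p = 0.000634 and 2.35e-05, edgeR). The log2 fold change of Hist1h2aa was -2.996 without mouse 1 and -5.82 without mouse 2, as values with no test. As a ratio of CPM, cluster 1 stood to cluster 2 at 15.9 (exact 95% interval 3.10 to 103) and 13.9 (2.87 to 132) for Hist1h2ba in mouse 1 and mouse 2. For Hist1h2aa this ratio was 91.7 (36.7 to 295) in mouse 1 and 11.3 (2.98 to 63.0) in mouse 2, so its size rests on which mouse is read. In clusters 4 to 6 neither gene had a UMI, and 3 UMIs per mouse were taken as the limit of a count of 0. Hist1h2ba in cluster 1 stood 6.55-fold and 7.50-fold above this limit for cluster 4 in mouse 1 and mouse 2. Hist1h2aa stood 62.9-fold above it in mouse 1 and 9.17-fold in mouse 2. These folds leave out the counting error of cluster 1, so they are not lower bounds of the fall. The 7 spermatogonium-like cells held 1 UMI of Hist1h2aa in mouse 1 and 5 in mouse 2, or 24.4 and 114 CPM. That is below cluster 1 in mouse 1 and above it in mouse 2. These UMIs, and the 1 UMI of Hist1h2ba there, are too few to rank that stage.

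H3f3a and H3f3b are separate genes for the same H3.3 protein. Their coding sequences of 411 bases, stop codon included, differed at 95 bases in 83 codons, and in all 83 the encoded amino acid was the same. The longest shared run was 23 bases, so that reads within the coding sequence could be told apart. The first 180 coding bases of each, read from the GENCODE transcripts, are printed to show this, with capitals at the bases that differ.
H3f3a: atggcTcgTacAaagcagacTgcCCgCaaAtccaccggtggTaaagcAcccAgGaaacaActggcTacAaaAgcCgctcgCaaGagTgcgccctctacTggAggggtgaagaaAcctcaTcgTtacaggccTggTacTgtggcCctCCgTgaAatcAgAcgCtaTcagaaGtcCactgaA
H3f3b: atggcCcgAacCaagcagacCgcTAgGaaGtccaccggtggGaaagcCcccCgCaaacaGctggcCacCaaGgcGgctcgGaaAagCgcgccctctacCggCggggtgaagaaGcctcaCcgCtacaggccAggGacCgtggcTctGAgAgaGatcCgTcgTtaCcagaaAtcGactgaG
The rows of the processed copy H3f3a-ps2 and of the retrocopy H3f3c held 76 and 1 UMIs, and the antisense gene H3f3aos 234, against 55512 for H3f3a.

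The course of each gene follows. H3f3a had 872 and 952 CPM in cluster 1 of mouse 1 and mouse 2, 798 and 896 CPM in cluster 2, 1241 and 1349 CPM in cluster 3, 1259 and 1348 CPM in cluster 4, 779 and 820 CPM in cluster 5 and 166 and 167 CPM in cluster 6. Its mice overlapped between clusters 1 and 2 and between clusters 3 and 4. It rose with a log2 fold change of 0.67 (SE 0.139, adjusted p = 0.000222) into cluster 3 and fell by 1.66 (SE 0.146, adjusted p = 6.83e-09) into cluster 6, by edgeR. The rise turned to -0.11 with UMIs per cell. At the step into cluster 4 the adjusted p of H3f3a was 0.14 in the main fit and 0.0453 with the mouse as a block, by edgeR. Into cluster 5 its change was -0.20 on the log2 scale in the main fit and did not pass (adjusted p = 0.267, edgeR). It was -0.71 with library size alone and -0.58 with UMIs per cell, and both passed (adjusted p = 4.27e-05 and 0.00246, edgeR).

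H3f3b had 4128 and 3695 CPM in cluster 1, 558 and 644 CPM in cluster 2, 1105 and 1112 CPM in cluster 3, 2459 and 2247 CPM in cluster 4, 1791 and 1406 CPM in cluster 5 and 160 and 137 CPM in cluster 6 of mouse 1 and mouse 2. No 2 neighbouring clusters overlapped. It fell by 2.43 on the log2 scale into cluster 2 (SE 0.152, adjusted p = 3.58e-11), rose with log2 fold changes of 0.94 (adjusted p = 7.13e-06) and 1.33 (adjusted p = 1.07e-07) at the next 2 steps, and fell by 2.82 into cluster 6 (SE 0.158, adjusted p = 9.85e-12), by edgeR. With UMIs per cell the rise into cluster 3 was 0.15 and did not pass (adjusted p = 0.341, edgeR). The step into cluster 5 was -0.06 in the main fit and -0.56 with library size alone, which passed the threshold (adjusted p = 0.00193, edgeR). Within cluster 5 cells varied widely: thinned to 5000 UMIs, the lower and upper quartiles of H3f3b were 1 and 14 UMIs per cell in mouse 1 and 1 and 12 in mouse 2.

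The balance of the 2 genes was read as their UMI ratio within each cluster. The log2 ratio of H3f3a to H3f3b UMIs was -2.10 ± 0.202 in cluster 1, 0.50 ± 0.0287 in cluster 2, 0.22 ± 0.0788 in cluster 3, -0.85 ± 0.162 in cluster 4, -0.99 ± 0.299 in cluster 5 and 0.17 ± 0.162 in cluster 6. H3f3b thus outnumbered H3f3a in both mice in clusters 1, 4 and 5. H3f3a outnumbered H3f3b in both mice in clusters 2 and 3. In cluster 6 H3f3a and H3f3b had 600 and 578 UMIs in mouse 1 and 523 and 430 in mouse 2. Their exact Poisson intervals in CPM overlapped in mouse 1 and not in mouse 2. With each cell thinned to 5000 UMIs, these counts were 237 and 230 in mouse 1 and 174 and 169 in mouse 2. The thinned log2 ratio in cluster 6 was 0.04, on fewer UMIs, against 0.17 with all UMIs, so no order of the 2 genes is read there. In UMIs per cell, H3f3a and H3f3b had 2.19 and 1.95 in cluster 6. The part of free RNA in these counts was not tested. Ratios within a cluster do not depend on the scaling between clusters, and the 2 genes are set side by side as 3′ molecules captured, not as protein.

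**Figure D3:**
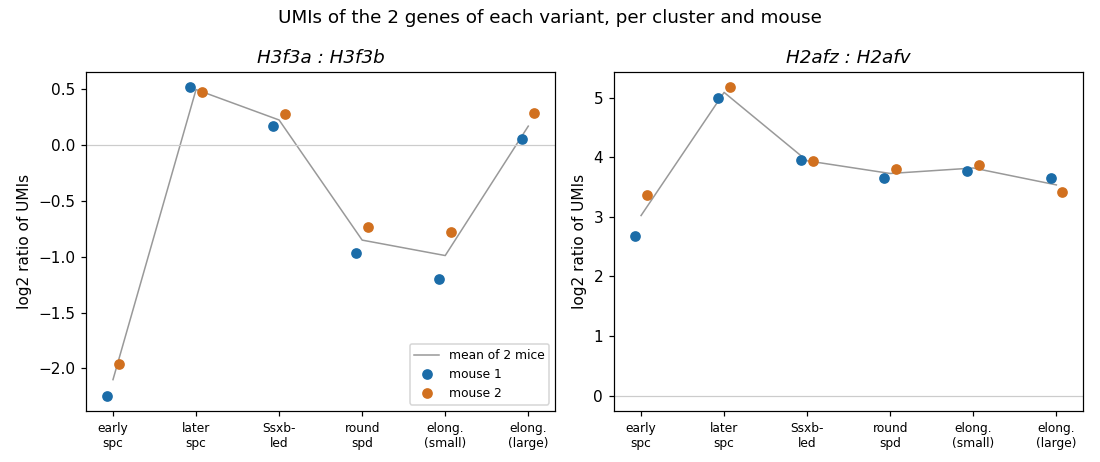
Log2 ratio of H3f3a to H3f3b UMIs (left) and of H2afz to H2afv UMIs (right) in the 6 germ cell clusters, per mouse, with the mean of both mice as a line. The H3.3 ratio crosses 0 from -2.10 to 0.50 at the first step, and the H2A.Z ratio peaks at 5.09 in the later spermatocyte-like cluster.

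H2afz and H2afv encode the 2 forms of H2A.Z, a variant known from promoters. Their coding sequences of 387 bases differed at 81 bases, and 3 of the 74 codons that differed encoded another amino acid. H2afz had 1615 and 1653 CPM in cluster 1 of mouse 1 and mouse 2, 1457 and 1506 CPM in cluster 2, 870.5 and 816 CPM in cluster 3, 347 and 353 CPM in cluster 4, 73.7 and 67.9 CPM in cluster 5 and 87.1 and 71.6 CPM in cluster 6. It declined through the spermatid clusters, with overlap of the mice only between clusters 5 and 6. The log2 fold changes of H2afz were -0.76, -1.02 and -1.81 at the steps into clusters 3, 4 and 5 (adjusted p = 3.45e-05, 1.38e-06 and 9.07e-10, edgeR), and kept their sign under library size alone and UMIs per cell. The rise of 0.77 called into cluster 6 (adjusted p = 0.00032, edgeR) was 0.17 with library size alone (adjusted p = 0.347) and turned to -0.76 with UMIs per cell (adjusted p = 0.000147). In clusters 5 and 6 H2afz had 1.77 and 1.04 UMIs per cell, and the part of free RNA in them was not tested. An annotated exon of Gm43403 overlaps the 250 bases before the start of H2afz, and Gm43403 had 2122 UMIs against 48745 of H2afz.

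H2afv, the rarer gene, had 252 and 161 CPM in cluster 1, 45.5 and 41.7 CPM in cluster 2, 56.3 and 53.5 CPM in cluster 3, 27.5 and 25.4 CPM in cluster 4, 5.40 and 4.64 CPM in cluster 5 and 6.94 and 6.69 CPM in cluster 6 of mouse 1 and mouse 2. It fell at the first step, by 1.94 on the log2 scale (SE 0.162, adjusted p = 2.27e-09, edgeR). There H2afz changed by 0.12 and did not pass (adjusted p = 0.466, edgeR). The change of H2afz turned to -0.14 with library size alone, and was 0.54 with UMIs per cell, which passed (adjusted p = 0.00167, edgeR). The difference between the 2 genes at this step was not tested. Both mice showed it in the log2 ratio of H2afz to H2afv, which went from 3.02 ± 0.483 in cluster 1 to 5.09 ± 0.121 in cluster 2 and then to 3.94, 3.73, 3.82 and 3.54. H2afv fell further into clusters 4 and 5, by 0.81 and 1.90 on the log2 scale (adjusted p = 0.000389 and 5.19e-06, edgeR), and with each cell thinned to 5000 UMIs the second of these was -0.47 and did not pass (adjusted p = 0.486, edgeR). Its small rise of 0.39 into cluster 3 (adjusted p = 0.0372, edgeR) missed the threshold with DESeq2 (adjusted p = 0.0726) and turned to -0.40 with UMIs per cell. Its rise of 1.05 into cluster 6 (adjusted p = 0.0175, edgeR) rests on 24 and 46 UMIs and turned to -0.48 with UMIs per cell. The 7 spermatogonium-like cells had 18 and 40 UMIs of H2afv in mouse 1 and mouse 2, or 439 and 910 CPM, above cluster 1 in both mice.

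Cluster 1 itself was not uniform. Its cells, taken over both mice, were cut by pseudotime into 4 parts of equal size, a split chosen with the levels already known. The parts held 20, 6, 16 and 11 cells of mouse 1 and 21, 35, 25 and 30 of mouse 2. H2afv went from 690 and 577 CPM in the first part to 93.0 and 58.9 CPM in the last in mouse 1 and mouse 2, and H3f3b from 5880 and 5923 CPM to 2332 and 2169 CPM. H2afz had 1451 and 1630 CPM in the first part and 1787 and 1646 CPM in the last. Hist1h2aa went from 106 and 21.9 CPM to 13.3 and 0 CPM, on 30 UMIs in the first part and 4 in the last. H2afv, H3f3b and Hist1h2aa were thus lower at the end of the earliest cluster than at its start in both mice, with no test, and the values of H2afz were within 1.5 times of each other.

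**Figure D4:**
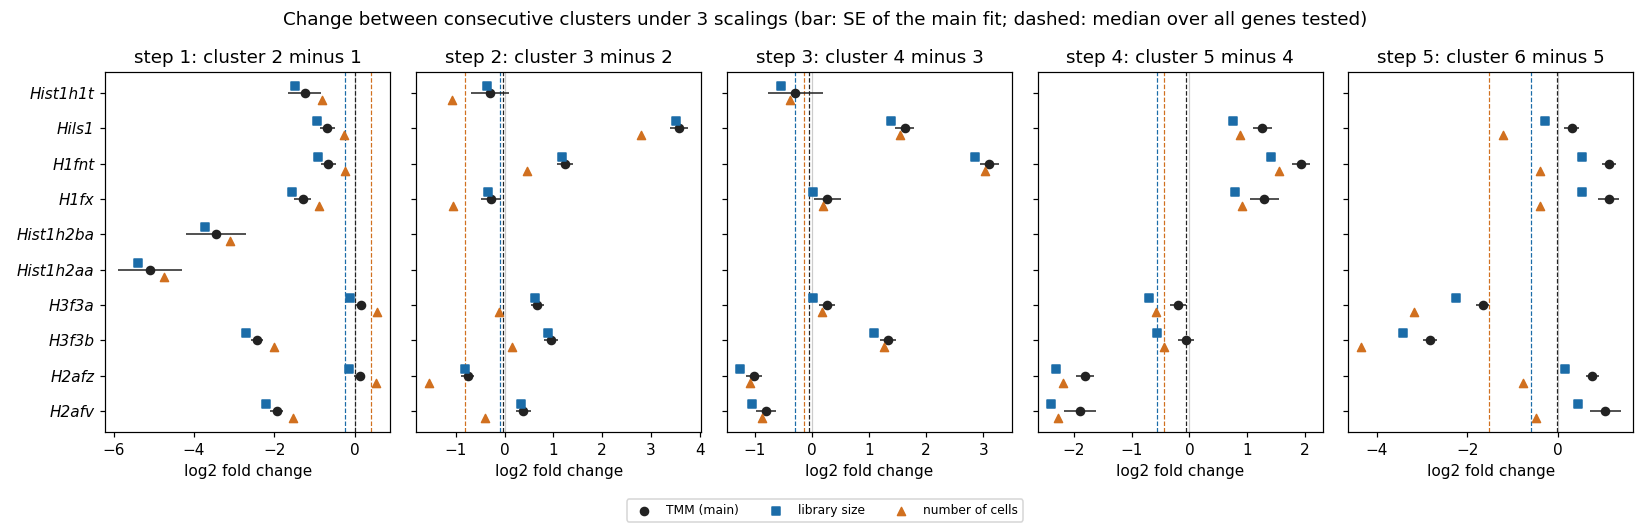
Log2 fold change of each gene between consecutive clusters (horizontal axis, later minus earlier) with TMM scaling and its SE (circles), library size alone (squares) and number of cells (triangles), with the median of all genes tested under each scaling as a dashed line. Genes with 3 or fewer UMIs in either cluster are left out; at step 5 the points of H1fnt, H1fx, H2afz and H2afv lie above 0 with TMM and below 0 per cell, where the median of all genes is -1.53.

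Along 20 bins of equal cell number in pseudotime, Hist1h1t, H1fx, Hist1h2ba, Hist1h2aa, H3f3b and H2afv were highest in bin 1 in both mice. H2afz was highest in bin 2, at 1567 and 1665 CPM, and H3f3a in bin 12, at 1319 and 1427 CPM. Hils1 was highest in bin 15 of mouse 1 and bin 17 of mouse 2, at 2648 and 2844 CPM. H1fnt was highest in the last bin, at 2437 and 2469 CPM. In this ordering the 2 spermatid linker histone genes ended apart in CPM, since Hils1 was below its maximum in the last bin and H1fnt was at its own. With 30 neighbours in the ordering, H1fnt was highest in bin 18 of mouse 1 and bin 17 of mouse 2 instead. In UMIs per cell, with the first ordering, H1fnt was also below its maximum in the last bin. It had 29.5 UMIs there against 34.6 in bin 16 of mouse 1, and 31.3 against 46.6 in bin 17 of mouse 2.

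**Figure D5:**
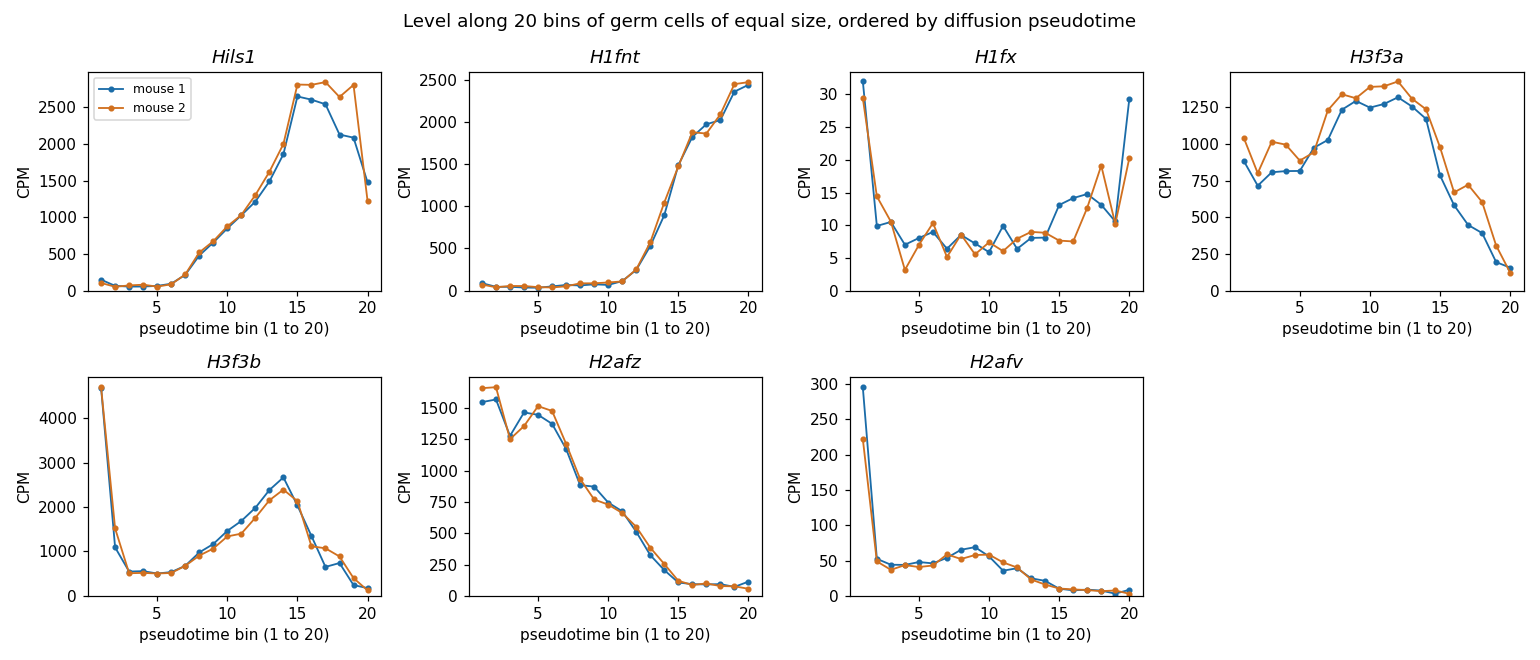
Level in CPM (vertical axis) of the 7 genes with at least 500 UMIs in 20 bins of equal cell number along pseudotime (horizontal axis), per mouse. H3f3b has its highest point in bin 1 and rises again toward the round spermatid bins, H3f3a peaks in bin 12, and H1fnt is highest in bin 20.

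The genes whose levels were most like those of a member were found by Pearson's correlation of log2(CPM + 1) over the 12 sums, among 7865 genes with at least 500 UMIs. The sums of a mouse share a library and those of a cluster share a stage, so these values only describe a course. For Hils1 and H1fnt the 12 sums include those of the early clusters, from which no expression of these genes is read. Hils1 was nearest to Trim36, Tmco2 and BC048671 (r = 0.998 each), and H1fnt to Asb17, Txndc2 and Tex35 (r = 0.998 to 0.997). H3f3a was nearest to Ddx5, Bud31 and Puf60 (r = 0.992 to 0.990) and H3f3b to Malat1 and Cisd2 (r = 0.981 and 0.979). H2afz was nearest to Nol8, Cep44 and Ppp3ca (r = 0.997 to 0.996) and H2afv to Eif4a1, Rbm39 and Prdx1 (r = 0.997 to 0.990). H1fx had the least close neighbours, Tmco1, Tex30 and Mapk6 (r = 0.971 to 0.946). Between members, r was 0.915 for Hils1 and H1fnt, 0.934 for H2afz and H2afv, 0.818 for H3f3a and H3f3b and -0.969 for H1fnt and H2afz.

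The list of histone chaperones and remodellers included Chaf1a and Chaf1b, and not all of its genes are particular to H3.3 or H2A.Z. Its genes were called lower more often than higher at the 3 last steps. Of 23 listed genes, 21 were tested, and Hira and Atrx failed the filter on low counts. At the first step 5 were higher and 6 lower, against 25.6% and 24.5% of all genes. Of these, Nasp, a histone chaperone, was highest at a log2 fold change of 1.32. Anp32e, which removes H2A.Z, was lowest at -4.12 on 49 UMIs in all. At the second step 6 were higher, with Dek at 2.59, and 7 lower, with Ino80 at -2.92, against 31.7% and 30.8% of all genes. At the 3 steps that followed 0, 1 and 1 were higher, against 25.7%, 23.2% and 16.2% of all genes, and 7, 10 and 10 lower, against 20.1%, 20.6% and 23.5%, with medians of -0.29, -0.23 and -0.86 against -0.06, -0.06 and -0.01 over all genes. Ruvbl1, a shared subunit of the H2A.Z remodellers, was the lowest at the third step (-1.57) and the highest at the last (1.28), where Ruvbl2 was the lowest (-1.85). The last value of Ruvbl1 rests on 2.5 and 4.0 CPM in clusters 5 and 6. It is by TMM scaling, and with UMIs per cell the median of all genes at this step was -1.53. DESeq2 gave 3 higher and 8 lower at the last step, where it called 2903 of all 14144 genes tested higher and 2470 lower.

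Of 12 other histone variant genes, 8 were tested. At the first step 1 was higher and 3 lower, with H2afb3, which had no UMI in cluster 1 and 1.03 CPM in cluster 2, as the higher one and H1f0, a linker histone of resting cells, lowest at -2.30. At the second step 3 were higher and 4 lower, with H2afb1, a short H2A variant of the testis, at 0.0480 CPM in cluster 2 and 2.97 CPM in cluster 3, and Hist3h2a lowest at -1.70. At the third step 1 was higher (H2afy2, 0.82) and 2 lower (H2afx, the variant phosphorylated at DNA breaks, lowest at -1.52), at the next 1 was higher (Hist3h2a, 2.06) and 3 lower (H2afb3 lowest at -1.92), and at the last 1 was higher (H2afj, 1.26) and 0 lower. H2afj had 22.95 ± 9.22 CPM in cluster 5 and 35.2 ± 1.61 CPM in cluster 6. The medians of the 8 genes were -0.46, -0.61, -0.08, -0.61 and -0.60, against 0.00, -0.03, -0.06, -0.06 and -0.01 over all genes. The shares of all genes called higher at the 5 steps were 25.6%, 31.7%, 25.7%, 23.2% and 16.2%. Those called lower were 24.5%, 30.8%, 20.1%, 20.6% and 23.5%. The 5 transition protein and protamine genes were higher at the steps into clusters 3, 5 and 6, 5 of 5 each time, with medians of 0.87, 3.87 and 1.82. At the first step 0 were higher and 3 lower, and at the third 4 were higher and 0 lower. In cluster 3, Tnp1, Tnp2, Prm1 and Prm2 had 732, 858, 2195 and 1054 CPM. The 6 Sertoli-like cells had 727, 1041, 2807 and 4474 (SD 5127) CPM, and the 5 Leydig-like cells 983, 1316, 2283 and 1515 CPM. Prm3 had 332 CPM in cluster 3, against 249 and 61.4 in these cells. No start of Tnp1, Tnp2, Prm1 or Prm2 expression is read from the step into cluster 3, and the part of free RNA in it was not tested.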

How the data were processed

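Single-cell RNA from whole testis was read as the UMI counts per gene and cell that the authors deposited, raw whole numbers in 1 matrix for both mice. According to the methods and the submitters' processing notes, reads were handled with bcl2fastq 2.17.1.14 and Cell Ranger 2.0.0 on a repeat-masked GRCm38 genome with added repeat sequences, and the libraries were combined with downsampling of reads. The ending of each barcode was taken as the mouse number. All 2552 cells were kept, and no barcode was shared between the mice.

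Counts were scaled to the median depth, log-transformed, and clustered by K-means (K = 9, 10 principal components, seed 42) on 27685 rows with a UMI, after 140 rows for histones, protamines, transition proteins and chaperones had been left out. Clusters were named from marker lists, where at least 3 markers passed a fold of 1.5 over all cells. Diffusion pseudotime used 15 neighbours. Scrublet called 25 doublets, which were kept except in 1 alternative.

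UMIs were summed per mouse and cluster and tested with edgeR's quasi-likelihood test after filterByExpr and TMM scaling (Benjamini-Hochberg adjustment over all genes, threshold 0.05). The procedure was tested on simulated data. Each SE is the size of the log2 fold change divided by the square root of edgeR's F value, and was not estimated by the fit itself. Where sums share a mouse they share an animal, and their deviations correlated at 0.0196 to 0.231 over 15 pairs of clusters, so a fit with the mouse as a block was an alternative. Exact Poisson 95% intervals cover counting error only, and the limit of a count of 0 is 3 counts. The TMM factors ranged from 0.487 to 1.65 and depend on the filter on low counts.

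All 10 genes are named. The 3 genes most like each member were taken among genes with at least 500 UMIs (1 such gene of H3f3b is not reported here), and from each list the called genes with the highest and the lowest fold change at a step. The members and lists were chosen with earlier results of these data known. Python 3.11.15, scanpy 1.11.5, scikit-learn 1.9.0, R 4.3.3, edgeR 4.0.16 and DESeq2 1.42.0 were used. Alternatives were DESeq2, library size alone, number of cells as library size, no filter, the mouse block, no doublets, clusters from all genes or without repeat rows, thinning to 5000 UMIs and each mouse alone. The scaling of levels to UMIs per cell was chosen after seeing the data.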

Additional observations from a re-analysis of the deposited data

How the results depend on the processing

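Of 46 fold changes of the members, 27 kept their sign and their side of the threshold with the number of cells as library size and 36 with library size alone. With the number of cells as library size, 2 genes were higher and 5 lower at step 1, 2 higher and 4 lower at step 2, 5 lower at step 4, and 0 higher and 5 lower at step 5. Of all 14144 genes tested, this setting called 4915 higher and 2167 lower at step 1, and 2946 higher and 7848 lower at step 2. It called 4617 lower at step 4, and 47 higher and 9016 lower at step 5. With library size alone 5 members were lower at step 4 and 1 higher at step 5. Of all genes tested, 5507 were lower and 870 higher at these steps. Without the filter on low counts 5 members were lower at step 4, and the TMM factors change with that filter. Thinning each cell to 5000 UMIs left 2 lower at step 1, 1 lower at step 4 and 2 higher at step 5. The sums then held fewer UMIs, and 35 of the 46 fold changes were tested. Without doublets 2 were lower at step 2. The shares over all genes were not counted when thinned, without doublets or without the filter. The counts of members under these 3 settings therefore have no background beside them and are not read as a result about the members. Clusters from all genes or without repeat rows gave the same calls for all 46 fold changes of the members. The replicate block, with the mouse as a term, added 3 calls at adjusted p of 0.028 (Hist1h1t, step 4), 0.0256 (Hils1, step 5) and 0.0453 (H3f3a, step 3, all edgeR), lost none and changed no other call.

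Signs turned as follows. With the number of cells the log2 fold changes at step 5 were -0.38 for Hist1h1t, -1.22 for Hils1, -0.39 for H1fnt, -0.40 for H1fx, -0.76 for H2afz and -0.48 for H2afv, and at step 2 they were -0.11 for H3f3a and -0.40 for H2afv. With library size alone they were -0.29 for Hils1 at step 5, and -0.11 for H3f3a and -0.14 for H2afz at step 1. With DESeq2 they were -0.14 for H3f3a and -0.17 for H2afz at step 1. Thinned, they were -0.055 for H2afz at step 1 and -0.10 for H2afv at step 5, and without doublets 0.081 for Hils1 at step 1. With 1 mouse left out, values without a test ranged from -0.83 to 0.48 for Hist1h1t at step 3 and from -0.19 to 0.008 for H3f3b at step 4. In UMIs per cell H1fnt was highest in cluster 5 and H2afz in cluster 2. In CPM, H3f3a was highest in cluster 3 or 4 by the mouse left out. Thinned, the log2 ratio of H3f3a to H3f3b was 0.57 in cluster 2 and 0.04 in cluster 6. That of H2afz to H2afv was then 4.92, 3.92 and 1.86 in clusters 2, 4 and 5. On a scale of pseudotime from 0 to 1, the highest bin was at 0.85 for H1fnt with 30 neighbours, and at 0.5 for H1fx and 0.35 for H3f3b as means of 2 mice with 10 bins, where mouse 1 moved for both genes. The cause of these shifts was not tested. Depth limits Hist1h1t, Hist1h2ba and Hist1h2aa most, with 187, 21 and 76 UMIs in all.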

Other observations

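Detection of both H3.3 genes in the same cell was counted after each cell was thinned to 5000 UMIs, as values with no test. In the round spermatid-like cluster 186 of 189 cells of mouse 1 and 259 of 259 cells of mouse 2 had a UMI of both genes. In the larger elongating or condensing spermatid-like cluster of mouse 1, 83 of 284 cells had both, 81 had H3f3a only, 64 had H3f3b only and 56 had neither. In mouse 2 these were 78, 54, 42 and 56 of 230 cells. At about 1 UMI per cell, a missing UMI does not show that a cell lacks the RNA. The part of free RNA in the UMIs found in this larger cluster was not tested.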
